A study of Mus musculus with 6 samples.

Results

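H2afv and H2afz, the pair of mouse genes that encode the histone variant H2A.Z, were read here together with Ppia and Purb, the genes on either side of H2afv, and with Wnt1. These 5 members are the rows of the deposited table that carry those symbols, 5 of 49492 rows, and all of them were found. They were selected on earlier results of the deletion against control contrast, in which H2afv, Ppia and Purb had been seen, to look at the place in the genome where a Wnt1-Cre transgene may lie. The values of that contrast are therefore given for the members as a description, without a test. 4 of the 5 passed the filter on low counts, and Wnt1 did not.

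Poly(A) RNA was sequenced from palatal shelves, the outgrowths that form the roof of the mouth, of C57BL mice at day E14.5 of embryonic life. The 3 control libraries had the genotype PRMT1 fl/fl and the 3 deletion libraries Wnt1-Cre; PRMT1 fl/fl, so that both groups carried the floxed alleles and the deletion group alone carried Cre. Each library is called by the number its column carries (control 212, 213, 220; deletion 208, 211, 221), which no label ties to a sample. Because no library had Cre without the deletion, an effect of the transgene and an effect of losing Prmt1 cannot be told apart. Wnt1-Cre acts in the neural crest lineage, so epithelium, muscle and blood in the shelves keep Prmt1. Totals were 44919889 to 50022829 estimated counts per library. Whether libraries stem from separate embryos is not stated, and the errors given are those between libraries.

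H2A.Z replaces ordinary H2A in nucleosomes next to active promoters and at enhancers. It is placed there by the SRCAP and TIP60-p400 remodelling complexes and taken out by INO80 and the chaperone ANP32E. H2afz encodes H2A.Z.1, whose transcript is high in dividing cells, and H2afv encodes the closely related H2A.Z.2. Wnt1-Cre transgenes drive the recombinase from Wnt1 regulatory sequence. In the most widely used line the insertion is recorded within H2afv, and in a later line, Wnt1-Cre2, within E2f1. The labels do not say which line was used.

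H2afv lies on chromosome 11 at 6427229 to 6444443 (mm10, minus strand) and H2afz on chromosome 3 at 137864487 to 137866922 (plus strand). The main transcript of a gene was taken here as its longest in the GENCODE M21 annotation with a consensus coding sequence (CCDS) tag. Those of the pair each have 5 exons, and each has a coding sequence of 387 bases. The first 150 coding bases are shown, since whether reads can separate the pair depends on how far they differ. Capitals mark each base that differs between them.
H2afv: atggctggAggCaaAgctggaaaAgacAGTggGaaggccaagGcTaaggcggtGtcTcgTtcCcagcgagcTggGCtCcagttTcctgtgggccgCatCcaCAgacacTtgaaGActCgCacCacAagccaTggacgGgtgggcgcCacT
H2afz: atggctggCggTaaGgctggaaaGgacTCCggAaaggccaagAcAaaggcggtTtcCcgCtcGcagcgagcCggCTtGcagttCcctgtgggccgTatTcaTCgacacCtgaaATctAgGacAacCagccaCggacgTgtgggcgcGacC
Within this stretch 34 of 150 bases differed. Over the whole coding sequence 81 bases differed (79.1% identity), and the longest run shared without a difference was 14 bases.

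The 250 bases before the start of each gene (RefSeq, GRCm38.p6) are shown to set the regulatory sequence of the pair side by side. Capitals mark CCAAT on either strand, which reads ATTGG on the other strand. The H2afv promoter is chr11:6444444-6444693 on the minus strand and the H2afz promoter chr3:137864237-137864486 on the plus strand.
H2afv: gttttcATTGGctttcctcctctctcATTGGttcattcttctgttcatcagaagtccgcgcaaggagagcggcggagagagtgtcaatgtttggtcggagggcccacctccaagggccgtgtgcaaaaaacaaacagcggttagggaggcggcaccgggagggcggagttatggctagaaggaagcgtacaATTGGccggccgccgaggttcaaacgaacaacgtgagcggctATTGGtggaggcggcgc
H2afz: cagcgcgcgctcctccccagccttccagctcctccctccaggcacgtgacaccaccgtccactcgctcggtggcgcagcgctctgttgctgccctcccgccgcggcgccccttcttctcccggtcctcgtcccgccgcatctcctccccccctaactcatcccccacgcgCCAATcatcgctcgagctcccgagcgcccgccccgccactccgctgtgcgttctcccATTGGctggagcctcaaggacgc
H2afv held 4 matches and H2afz held 2. Of 32851 promoters of the same length, 10.1% had 2 or more matches and 0.84% had 4 or more. Neither held TATAAA on either strand, which 12.4% of promoters did, and CG occurred 19 times in H2afv and 28 times in H2afz (median over promoters 6). A match of letters is not a bound site.

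H2afv stood lower in all 3 deletion libraries. It measured 90.25, 81.95 and 89.64 CPM (counts scaled to a common library total, with TMM factors) in controls 212, 213 and 220, and 48.27, 47.22 and 57.15 CPM in deletion 208, 211 and 221. The groups did not overlap, and deletion 221 was the highest of the deletion libraries. Group means (± SD, n = 3 here and for every mean that follows) were 87.28 ± 4.63 and 50.88 ± 5.46 CPM, a log2 fold change of -0.78 ± 0.08 (SE). The fitted level in deletion libraries was 58.3% of control, with a 95% interval of 51.8% to 65.5%. Single deletion libraries stood at 54.1% to 65.5% of the control mean. In bulk tissue, fewer cells with a transcript and less transcript per cell cannot be told apart.

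The H2afz rows differed less. H2afz, the more abundant gene of the pair, measured 228.1, 226.5 and 255.9 CPM among controls and 214.4, 216.4 and 223.3 CPM among deletion libraries. Control 220 stood apart upward, and the highest deletion library was at 98.6% of the lowest control. The means were 236.8 ± 16.5 and 218.0 ± 4.67 CPM, a log2 fold change of -0.12 ± 0.06 (SE), and the 95% interval of -0.25 to 0.01 contains 0. Control 220 was also the only control with the high Xist of the deletion libraries (4452 CPM in it, 15.5 and 16.0 CPM in controls 212 and 213, 3384 to 4487 CPM in deletion), so it alone matched them in sex. Against control 220, the mean of the deletion libraries was 56.8% for H2afv and 85.2% for H2afz.

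The ratio of H2afv to H2afz counts does not depend on how libraries are scaled. It was 0.396, 0.362 and 0.350 in controls and 0.225, 0.218 and 0.256 in deletion libraries. Every deletion library thus lay below every control, with means of 0.369 ± 0.024 and 0.233 ± 0.020. The ratio of H2afv to its neighbour Ppia was 0.213, 0.206 and 0.222 in controls and 0.136, 0.134 and 0.152 in deletion libraries, again without overlap. The ratio of H2afz to Ppia overlapped between groups, at 0.538 to 0.633 in controls and 0.594 to 0.613 in deletion libraries.

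**Figure D1:**
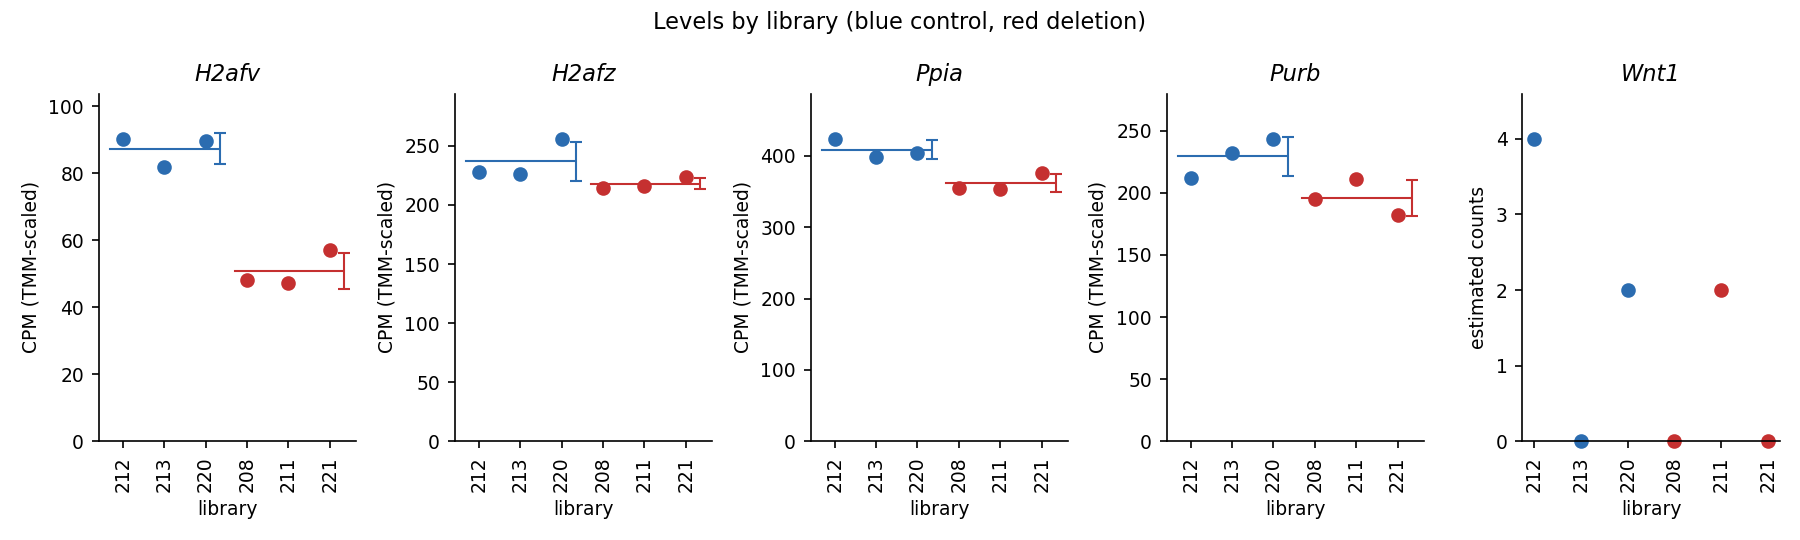
CPM (TMM-scaled, axes from 0) of H2afv, H2afz, Ppia and Purb and estimated counts of Wnt1, with libraries on the x axis, blue for control and red for deletion; lines are group means and bars SD (n = 3). H2afv is the member with the widest gap between groups (81.95 CPM in the lowest control, 57.15 CPM in the highest deletion library), while Wnt1 stays at 0 to 4 counts.

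Per length of transcript (1633 bases for H2afv, 1069 for H2afz), H2afv was the minor source of H2A.Z transcripts. It stood at 55.3, 50.2 and 54.9 CPM per kb in controls and 29.6, 28.9 and 35.0 CPM per kb in deletion libraries. H2afz stood at 213.3, 211.9 and 239.4 CPM per kb in controls and 200.6, 202.5 and 208.9 CPM per kb in deletion libraries. The share of the pair's sum that came from H2afv was 19.5 ± 1.0% in controls and 13.2 ± 0.98% in deletion libraries. With the length of all annotated exons (1633 and 1776 bases) in place of the main transcript, the shares were 28.6 ± 1.3% and 20.2 ± 1.4%. The lower share in the deletion group thus held with either length, with the H2afz row taken alone.

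The summed H2A.Z level was 268.6, 262.1 and 294.3 CPM per kb in controls and 230.1, 231.4 and 243.9 CPM per kb in deletion libraries. The groups did not overlap, and the deletion mean was 85.5% of the control mean (275.0 ± 17.0 and 235.1 ± 7.61 CPM per kb). H2afv made up 55.9% of the difference in the sum, or 67.8% with the length of all exons. Both values use the H2afz row alone. Rows that share sequence with H2afz, described below, are left out, and H2afz made up 36.95% of its CPM sum with them. If those rows hold H2afz reads, which was not tested, the part from H2afv would differ. No deletion library had more H2afz than a control, so the lower H2afv was not accompanied by a higher H2afz.

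**Figure D2:**
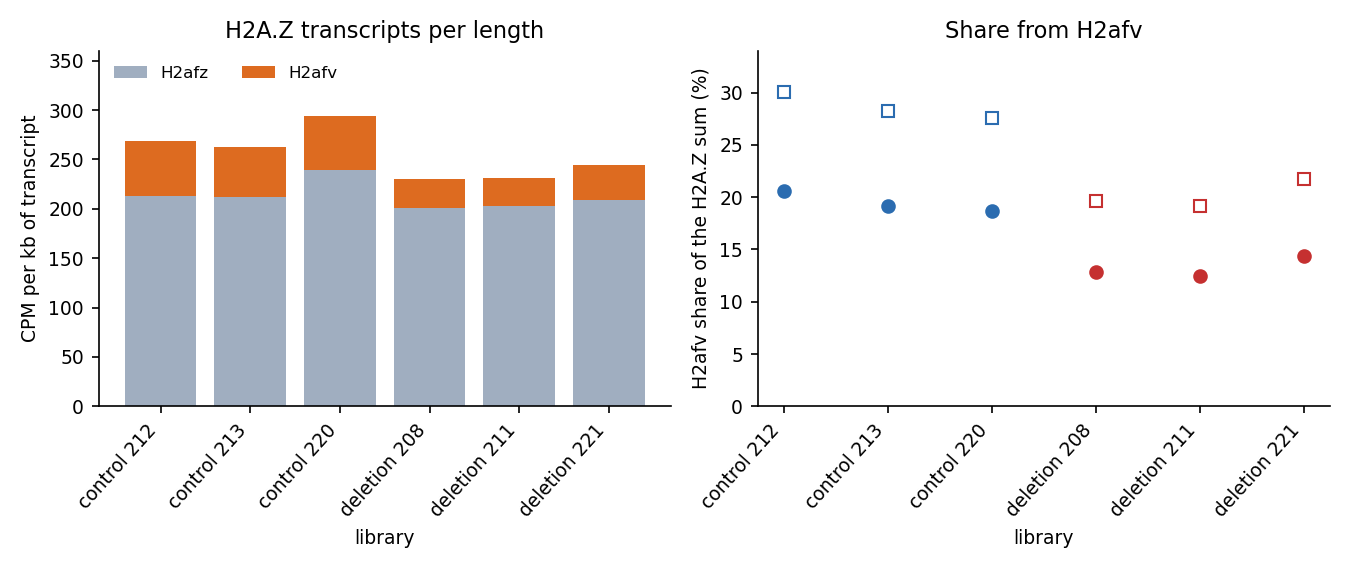
Left, stacked CPM per kb of transcript of H2afz (grey) and H2afv (orange) in each library; right, the percent of that sum from H2afv, as filled circles for the main transcript length and open squares for all annotated exons, blue for control and red for deletion. The sum is 262.1 to 294.3 CPM per kb in controls and 230.1 to 243.9 in deletion libraries, and the orange part shrinks most.

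How surely a read belongs to each member differs. Every window of 50 bases along the main transcript was looked up on both strands in the GENCODE M21 transcripts of all other genes. For H2afv 0 of 1584 windows had an exact copy elsewhere, so its row is the least exposed to shared reads. For H2afz 69.6% of 1020 windows had a copy, in 6 other genes, and for Ppia 54.3% of 1121 windows, in 38 other genes. For Purb it was 2.9% of 8270 windows, in 2 genes: Gm11973, which overlaps the 5′ end of Purb and runs on beyond it, and the miRNA gene Gm22123 within it. Gm11973 is antisense to Purb, and reads from the 2 strands cannot be separated here.

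Among the genes with H2afz windows, Tmcc1, which encodes a membrane protein of the endoplasmic reticulum, held 306.0 ± 9.62 CPM among controls and 295.3 ± 1.76 CPM among deletion libraries, and the processed copy Gm8203 held 91.5 ± 4.54 and 83.0 ± 1.27 CPM. These rows may hold H2afz reads, which was not tested. H2afz summed with the 5 such genes in the table gave 634.4 ± 29.5 CPM among controls and 596.5 ± 5.79 CPM among deletion libraries. That is a ratio of 94.0%, against 92.1% for the H2afz row alone. Tmcc1, a gene in its own right with a ratio of 96.5%, is the largest part of the sum. The ratio of the sum is therefore not one of H2afz reads alone.

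Ppia encodes cyclophilin A, an abundant cytoplasmic prolyl isomerase often used as a reference gene. It lies on chromosome 11 at 6415443 to 6419817 (plus strand), 7.41 kb from H2afv. It measured 423.7, 398.2 and 404.0 CPM among controls and 355.3, 353.0 and 376.1 CPM among deletion libraries. The groups did not overlap, and the log2 fold change was -0.18 ± 0.05 (SE; 95% interval -0.30 to -0.06). The fitted level was 88.5% of control.

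The Ppia row may hold only part of the reads that match cyclophilin A, which was not tested. Gm10123, a processed pseudogene of Ppia on chromosome 9, chosen for mention after its values were seen, held more counts than Ppia itself, 695.8 ± 27.9 CPM among controls and 590.9 ± 19.2 CPM among deletion libraries. Of the 30 genes in the table that share windows with Ppia, 4 were tested. Of these 4, 2 were called lower by edgeR, Gm10123 (adjusted p = 0.0297) and Gclm (0.0184), where 3.37% of all tested genes were. These 2 calls were not checked under the alternative settings, and nothing is read from so few genes. Ppia summed with all 30 was at 1225, 1173 and 1235 CPM among controls and 1019, 1022 and 1079 CPM among deletion libraries. The sum stood at 85.9% of control, close to the Ppia row, and Ppia's own row made up 34.2% of it.

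Purb encodes a single-stranded DNA and RNA binding protein that represses smooth muscle genes. It is a single-exon gene at 6467599 to 6475917 of chromosome 11 (minus strand), 23.2 kb from H2afv on the other side from Ppia. It measured 212.2, 232.2 and 243.3 CPM among controls and 195.0, 210.7 and 181.8 CPM among deletion libraries. The groups are apart by a narrow margin, since deletion 211 reached 99.3% of control 212. The log2 fold change was -0.23 ± 0.07 (SE; 95% interval -0.38 to -0.08), and the fitted level was 85.4% of control.

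H2afv was thus much lower than either flank in the same libraries, 58.3% of control against 88.5% and 85.4%. By edgeR's quasi-likelihood test over all 19284 tested genes, 3.37% were called lower and 3.65% higher in the deletion libraries (adjusted p under 0.05). An unadjusted p under 0.05 by that test was found for 4344 of the 19284, and the DESeq2 Wald test called 2125. All 4 tested members had every deletion library below every control, as did 13.5% of tested genes, and 27.5% had groups apart in either direction. Since the members were picked with this contrast in view, nothing is read from that count. Of all 19284 tested genes, 714 had a lower log2 fold change than H2afv. Among the 3841 genes at or above the mean level of H2afv, 12, H2afv included, had a log2 fold change as low. These ranks use the values on which H2afv was picked, so they are a description only.

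The neighbourhood was then read by position, among genes that passed the filter on low counts and with the members left out. GENCODE M21 places 41 other genes within 500 kb of H2afv besides Ppia and Purb, of which 17 passed the filter. Of these, 0 rose and 1 fell (5.88%, where 7.01% of all tested genes were called in either direction). Their median log2 fold change was 0.04, against 0.00 over all tested genes, with 11 above and 6 below 0. The median of these 17 was thus not below that of all genes. Ppia and Purb, left out of it, were at -0.18 and -0.23.

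The gene that fell was Ogdh, a subunit of the mitochondrial 2-oxoglutarate dehydrogenase, 70.6 kb from H2afv beyond Ppia and Zmiz2. It measured 136.1, 135.6 and 141.2 CPM among controls and 117.2, 122.0 and 121.1 CPM among deletion libraries, without overlap. Its log2 fold change was -0.20 ± 0.05 (SE; edgeR adjusted p = 0.032). That call was lost without control 212, 213 or 220 or deletion 208 or 211 (edgeR adjusted p = 0.0602 to 0.132), each left out in turn, and with embryo sex as a covariate (0.156).

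Zmiz2, a transcriptional coactivator gene that lies between Ppia and Ogdh 21.1 kb from H2afv, overlapped between groups at 85.0 ± 3.23 and 81.4 ± 6.79 CPM (95% interval of the log2 fold change -0.21 to 0.08). Further out on that side, Tmed4, which encodes a cargo receptor of the secretory pathway, was at 55.2 ± 3.95 and 60.0 ± 1.0 CPM, and the helicase gene Ddx56 at 49.2 ± 0.91 and 51.1 ± 2.63 CPM. On the side of Purb, the nearest tested genes were the myosin gene Myo1g (1.97 ± 0.38 and 1.46 ± 0.52 CPM), the non-coding host gene Snhg15 (8.32 ± 0.06 and 8.43 ± 0.64 CPM), Ccm2, a scaffold gene of vascular development (35.0 ± 0.87 and 39.0 ± 2.33 CPM), and Nacad (3.97 ± 0.24 and 4.24 ± 0.55 CPM). None of these 7 passed. Ogdh, Ppia, H2afv and Purb were lower in every deletion library than in any control, as were 13.5% of tested genes. Zmiz2, which lies among them, was not. Of the 17 genes read by position, 5 had groups apart (27.5% over all tested genes). Ogdh and Nudcd3 were lower, and Ccm2, Camk2b and Ramp3 were higher. Ppia, H2afv and Purb were picked with this contrast in view.

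**Figure D3:**
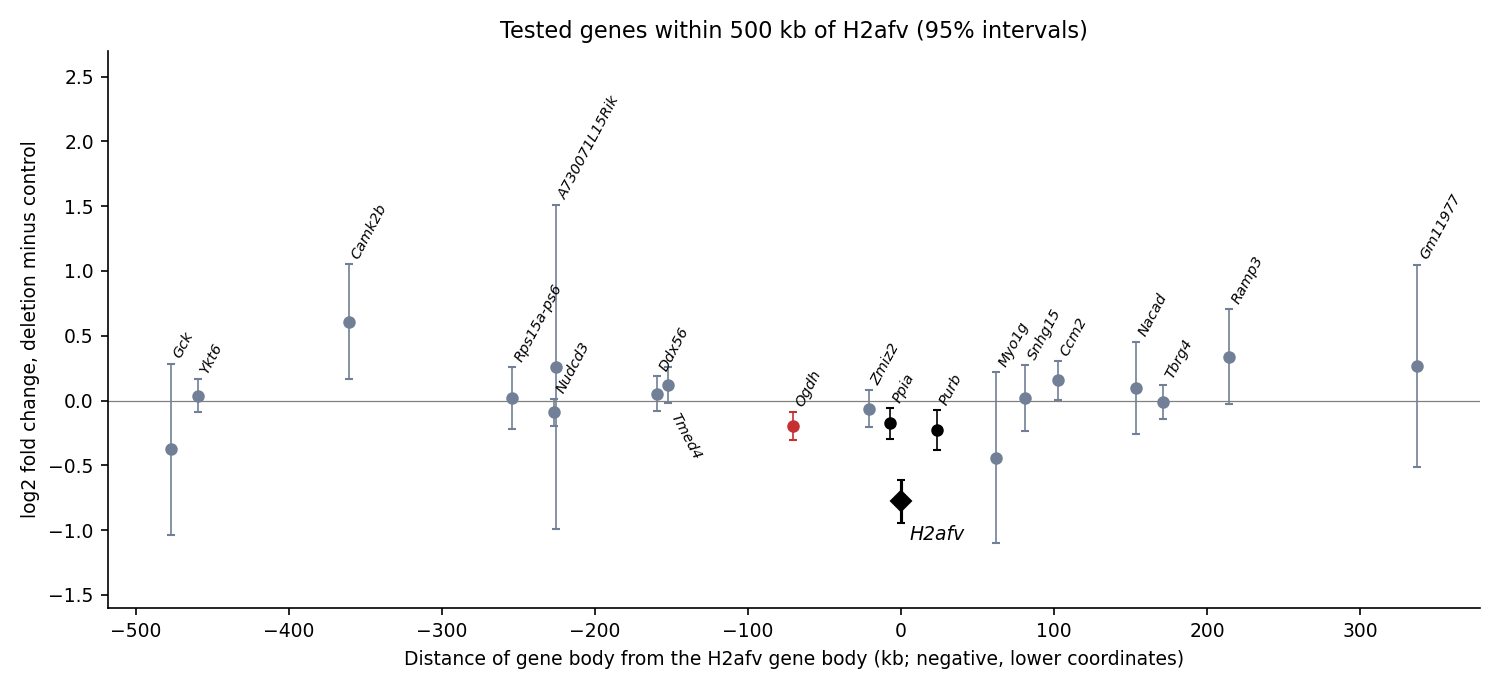
Log2 fold change (deletion minus control, y axis) with its 95% interval for each tested gene against the distance of its gene body from that of H2afv (kb, x axis; negative is towards lower coordinates). Black marks members, red the gene past the threshold (Ogdh) and grey the rest; H2afv at -0.78 lies below all 19 neighbours drawn, whose values run from -0.44 (Myo1g) to 0.61 (Camk2b).

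Wnt1, on chromosome 15 at 98789857 to 98793837 (plus strand), encodes the ligand that maintains the midbrain and its border with the hindbrain. It had 4, 0 and 2 counts in controls 212, 213 and 220 and 0, 2 and 0 counts in deletion 208, 211 and 221. The control group holds 6 counts of 144935604 and the deletion group 2 counts of 140814329. A library at 0 allows up to 3 counts, or 0.0601 to 0.067 CPM in libraries of this depth. Wnt1 was thus at the limit of detection in both groups, and no fold is given. The widely used Wnt1-Cre line is known for added Wnt1 in the midbrain. In these shelves no more Wnt1 was detected with Cre than without it. Shelves are not midbrain and Wnt1 was at the limit of detection, so this cannot show whether the transgene adds Wnt1. Reads of the Cre sequence were not analysed here.

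Markers of the midbrain and neural tube, where Wnt1 is normally made, were low apart from Sox2, which epithelium also makes. En2, Pax2 and Pax5 did not pass the filter (at most 0.199 CPM in any library). Of the 6 that did, 0 were called by edgeR (7.01% over all tested genes), also at an unadjusted p under 0.05 and with DESeq2. Their summed level was 66.2 to 72.2 CPM among controls and 57.9 to 67.2 CPM among deletion libraries.

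Of 63 genes annotated within 500 kb of Wnt1 itself, 29 were tested, and 1 rose and 2 fell (10.3%, against 7.01% of all tested genes). Wnt10b, the Wnt ligand gene 11.7 kb from Wnt1, measured 10.3, 16.1 and 16.9 CPM among controls and 6.63, 6.70 and 9.15 CPM among deletion libraries. It fell by 0.95 on the log2 scale (edgeR adjusted p = 0.0287). Fkbp11, a prolyl isomerase gene of the endoplasmic reticulum 61.7 kb away, went from 11.8 ± 0.72 to 6.79 ± 0.96 CPM (log2 fold change -0.80, edgeR adjusted p = 0.00556; -0.69 and 0.118 with sex as a covariate). Cacnb3, a calcium channel subunit gene chosen for mention after its value was seen, rose from 63.95 ± 1.95 to 75.7 ± 5.09 CPM (log2 fold change 0.24, edgeR adjusted p = 0.0364).

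Between Wnt10b and Fkbp11, the GTPase gene Arf3 did not pass, at 156.9 ± 4.81 and 152.1 ± 6.59 CPM. Beyond Wnt1, Ddn (0.173 ± 0.072 and 0.325 ± 0.11 CPM), B130046B21Rik and the AMP kinase subunit gene Prkag1 (50.2 ± 0.81 and 51.9 ± 2.78 CPM) did not pass either. Ccdc65, the next tested gene beyond Fkbp11, mentioned after its values were seen, overlapped between groups at 1.98 ± 0.88 and 1.06 ± 0.10 CPM (log2 fold change -0.90; adjusted p = 0.151 by edgeR). With DESeq2, 5 genes of this window were called. The call of Wnt10b was lost without control 213 or 220 or deletion 208 or 211 (edgeR adjusted p = 0.0615 to 0.127), and with sex as a covariate (0.106).

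E2f1, a transcription factor gene of the G1 to S transition and the insertion site recorded for Wnt1-Cre2, measured 44.9, 48.3 and 54.9 CPM among controls and 45.2, 45.0 and 47.8 CPM among deletion libraries. The groups overlapped (log2 fold change -0.10 ± 0.08 (SE), 95% interval -0.27 to 0.07, edgeR adjusted p = 0.485).

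Prmt1, the targeted gene, was 251.3 ± 5.95 CPM among controls and 207.9 ± 8.47 CPM among deletion libraries, 82.7% of control. The fold of H2afv, at 58.3% of control, was thus larger than that of the deleted gene itself. Prmt1 counts include transcript outside the deleted part and cells without Cre.

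The genes that place and remove H2A.Z moved little. All 27 genes of the SRCAP, TIP60-p400 and INO80 complexes and of H2A.Z chaperones were tested. By edgeR 0 rose and 0 fell (0%, against 7.01% of all tested genes), and 1 was called with DESeq2. An unadjusted p under 0.05 was found for 4344 of all 19284 tested genes and for 4 of these 27. Their median log2 fold change was 0.08, from -0.13 (Ruvbl2, an ATPase shared by these complexes) to 0.26 (Actr5, an INO80 subunit). Of the 27, 20 were above 0 and 7 below, and 8 had groups apart, as did 27.5% of all tested genes. Actr5 measured 18.3, 17.8 and 18.7 CPM among controls and 22.1, 22.0 and 21.4 CPM among deletion libraries, without overlap (edgeR adjusted p = 0.0536). With the DESeq2 Wald test it passed (adjusted p = 0.0332). Meaf6, a subunit of TIP60-p400, was at 44.4 ± 0.70 and 50.4 ± 1.77 CPM (edgeR adjusted p = 0.0828). Srcap and Ep400, the ATPases of the depositing complexes, had log2 fold changes of 0.08 and -0.03, and Anp32e, the chaperone that removes H2A.Z, -0.05.

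Of 9 other histone variant genes expressed outside S phase, 0 rose and 0 fell by edgeR, where 7.01% of all tested genes were called. Their median log2 fold change was 0.00, and 0 were called with DESeq2. An unadjusted p under 0.05 was found for 4344 of all 19284 tested genes and for 3 of these 9. Groups were apart in 3 of the 9 (27.5% over all tested genes). H2afx, the variant phosphorylated at DNA breaks, was at 180.4 ± 22.2 and 211.0 ± 17.9 CPM (edgeR adjusted p = 0.192), and the macroH2A gene H2afy2 at 222.4 ± 8.80 and 244.2 ± 6.30 CPM (0.153). The H3.3 genes H3f3a and H3f3b had log2 fold changes of 0.04 each.

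**Figure D4:**
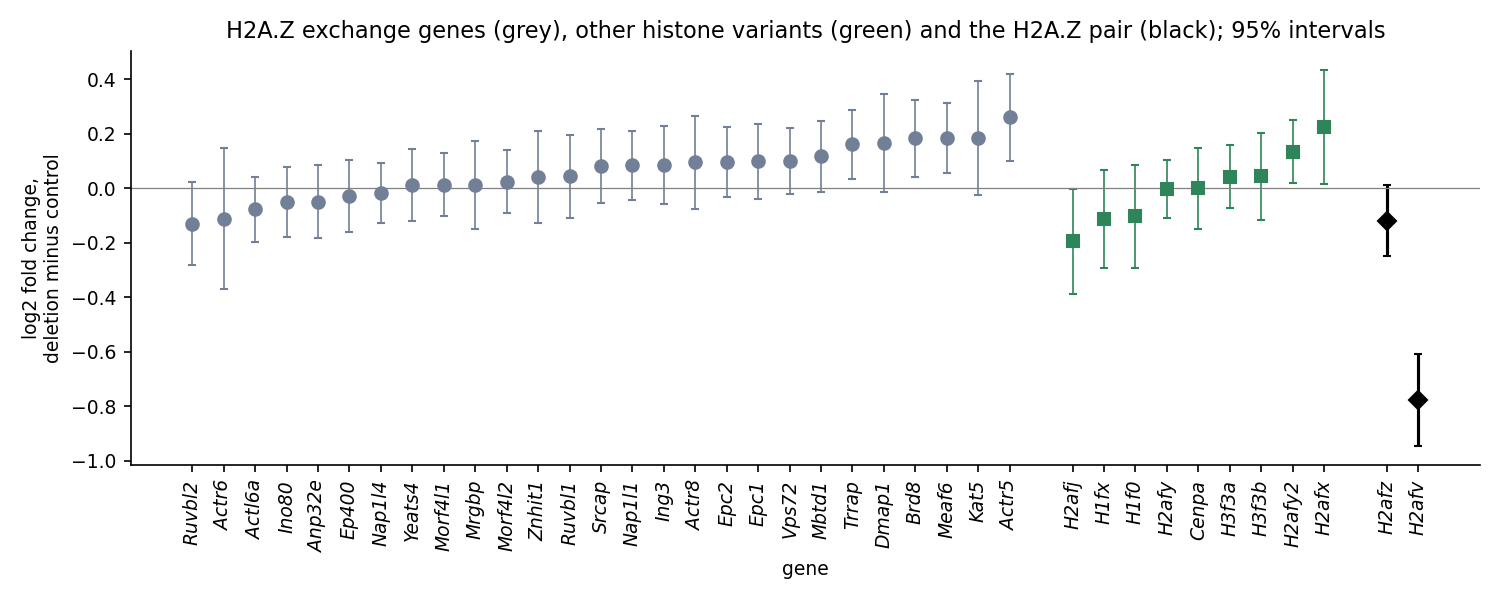
Log2 fold change (deletion minus control) with 95% interval for 27 H2A.Z exchange and chaperone genes (grey circles), 9 other histone variant genes (green squares) and H2afz and H2afv (black diamonds). The grey and green points lie between -0.20 (H2afj) and 0.26 (Actr5), and H2afv lies at -0.78.

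The relatives of the flanking genes were read in the same way. Of 14 other cyclophilin genes, 0 rose and 1 fell (7.14%, near the 7.01% of all tested genes), with a median log2 fold change of -0.02. The gene that fell was Ppic, a secretory pathway cyclophilin, from 154.3 ± 10.8 to 127.8 ± 4.30 CPM (log2 fold change -0.27, edgeR adjusted p = 0.0213). It did not pass with sex as a covariate (-0.15, 0.369) or without control 212 or 213 or deletion 208 or 211. Of the other Pur genes, neither was called by edgeR or DESeq2, nor had an unadjusted p under 0.05. Purg was at 22.3 ± 0.16 and 20.3 ± 1.60 CPM (log2 fold change -0.13; adjusted p = 0.365 by edgeR) and Pura at 11.9 ± 1.34 and 11.7 ± 1.71 CPM (-0.03).

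Of 11 canonical Wnt target genes, 1 rose and 1 fell (18.2%, against 7.01% of all tested genes), with a median log2 fold change of 0.03. An unadjusted p under 0.05 by edgeR was found for 4344 of all 19284 tested genes and for 7 of these 11. The lowest values, named after they were seen, did not pass: the Wnt antagonist gene Dkk1 (log2 fold change -2.74, edgeR adjusted p = 0.124), the transcription factor gene Tcf7 (-1.07, 0.0536) and Notum, which encodes a Wnt-inactivating enzyme (-0.75, 0.0676). Lgr5, the R-spondin receptor, measured 50.3, 39.6 and 53.4 CPM among controls and 81.3, 82.4 and 86.3 CPM among deletion libraries (log2 fold change 0.80; adjusted p = 0.00232 by edgeR). Ccnd1, the cyclin of G1, was lower at 80.0% of control (edgeR adjusted p = 0.0139). Of 15 tested Wnt ligands other than Wnt1, 0 rose and 2 fell, Wnt10b and Wnt5a (log2 fold change -0.29, edgeR adjusted p = 0.0218). That is 13.3%, with 7 at an unadjusted p under 0.05 and 11 of 15 below 0 (median log2 fold change -0.24). None of these 4 passed with sex as a covariate (adjusted p = 0.0588 to 0.149). The call of Wnt5a was also lost without control 213 or 220 or deletion 208 or 211 (edgeR adjusted p = 0.0567 to 0.128). That of Ccnd1 was lost without control 213 (0.0723) or deletion 208 (0.0531).

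The genes whose level followed H2afv most closely over the 6 libraries were ranked by Pearson's r of log2 CPM among 12714 genes. They were Entpd6, a nucleotidase gene (r = 0.998), Neat1, the non-coding RNA of paraspeckles (0.996), Adck2 (0.994), Mxi1, a partner of MAX (0.993), and Trappc9, a vesicle tethering subunit (0.991). None lies on chromosome 11. Neat1 was the only 1 of them with a difference of similar size, 37.1 ± 1.68 CPM among controls and 22.5 ± 2.85 CPM among deletion libraries (log2 fold change -0.73; adjusted p = 0.0016 by edgeR). In each of the 5, as in H2afv, the deletion libraries lay below the controls and deletion 221 was the highest of them. The points share libraries and scaling, so r is given as a description.

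For H2afz the closest were Tmcc1 (r = 0.988), which contains H2afz windows as given above, Parl, a mitochondrial protease gene (0.985), Melk, a kinase gene of dividing cells (0.983), the matricellular gene Cyr61 (0.983) and Ckap2l, a spindle gene (0.981). All 5 were highest in control 220, as was H2afz. Among the members, H2afv had r = 0.972 with Ppia, 0.759 with H2afz and 0.683 with Purb. Its r with Prmt1 was 0.984.

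The tissue label was checked on markers of the cell types that palatal shelves hold. All 10 palatal mesenchyme markers were tested, 0 were called by edgeR (3 at an unadjusted p under 0.05, 2 with DESeq2), and their sum was 8342 to 9754 CPM among controls and 7210 to 8129 CPM among deletion libraries. Marker sums were apart between groups for mesenchyme, epithelium, muscle, Schwann cells and endothelium, and overlapped for neurons, red cells and macrophages. Over all 19284 tested genes, edgeR called 7.01%, DESeq2 called 2125, and 4344 had an unadjusted p under 0.05. The 6 epithelial markers summed to 992.4 to 1048 CPM among controls and 588.7 to 811.2 CPM among deletion libraries (3 fell), and the 6 skeletal muscle markers to 400.8 to 453.7 and 704.8 to 1168 CPM (4 rose). The 6 neuronal markers all had log2 fold changes above 0 (median 0.75), and their sums were 32.0 to 51.3 CPM in controls and 43.6 to 70.1 CPM with deletion (0 called by edgeR, 4 at an unadjusted p under 0.05 and 2 with DESeq2). The 5 Schwann cell markers were also all above 0 (median 0.33, 68.4 to 74.6 and 79.7 to 103.8 CPM, 1 rose). Medians were -0.04 for endothelial (304.5 to 312.5 and 274.9 to 303.3 CPM), -0.20 for red cell (1950 to 2400 and 1188 to 2491 CPM) and -0.15 for macrophage markers (46.4 to 57.4 and 43.3 to 48.9 CPM). The part of these shifts in the member values was not tested.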

How the data were processed

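Poly(A) RNA-seq of palatal shelves was analysed from 3 control and 3 deletion libraries. The authors deposited a table of estimated counts (expected counts, not normalized) per gene symbol. The tools named per the submitters' processing notes are STAR 2.4.1d, CASAVA 1.8.2 and Partek, with the build mm10. Which of them counted, the annotation and the strand setting: not given in the sources used here. Column names show the group and not which of its samples.

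Counts were rounded, genes kept by filterByExpr (minimum count 10, minimum total 15), and scaled by TMM. Groups were compared by glmQLFTest of edgeR 4.0.16 (R 4.3.3) without covariates, over 19284 genes, adjusted by Benjamini-Hochberg at a threshold of 0.05 and checked on simulated data. In the simulated data 44% of 1.5-fold and 86% of 2-fold changes were recovered, so a gene not called may still differ. Also called were 23 genes simulated without a change, so a called gene may not differ. SE was taken as the log2 change over the root of F. Positions are from GENCODE M21 (GRCm38, as mm10), and RefSeq lists H2afv and H2afz as H2az2 and H2az1. The 5 RefSeq promoters of the members were matched.

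The members and lists were chosen with earlier results of these data known. Named were the members, Prmt1, E2f1, the genes called and nearest to H2afv and Wnt1, up to 4 called genes per list (else the 2 of smallest p), and the 5 genes most correlated with H2afv and H2afz. Alternatives were DESeq2 1.42.0 size factors and Wald test, no filter, a CPM filter, sex as a covariate, other windows and each library left out. The sums with genes that share windows were added after seeing the data.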

Additional observations from a re-analysis of the deposited data

How the results depend on the processing

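No paired analysis was possible because the table's columns carry no replicate number of the labels. The log2 fold change of H2afv ran from -0.87 to -0.73 over 11 alternatives, those of H2afz from -0.23 to -0.06, of Ppia from -0.21 to -0.15 and of Purb from -0.31 to -0.18, all below 0. The value of H2afz with sex as a covariate (-0.23), where controls 212 and 213 carry only the sex term, moved by more than the spread between libraries. The count of 1352 genes called became 2125 with the DESeq2 Wald test, 129 with sex as a covariate and 356 to 1872 with 1 library left out (356 without control 213, 545 without deletion 208, 711 without deletion 211). Within H2afv's window it was 0 with sex as a covariate, 0 to 1 with 1 library left out (1 without deletion 221) and 2 in the 1000 kb window, where the muscle enzyme gene Pgam2 was added. Of 395 values for 36 other named genes, 348 kept direction and side of the threshold, 40 no longer passed, 2 newly passed and 5 changed sign: Pura with sex as a covariate (0.168) and without control 212 (0.002), control 213 (0.031) or deletion 221 (0.067), and Snhg15 (-0.023 without deletion 221, 0.078 without deletion 211). With DESeq2, 6 Wnt targets and 5 Wnt ligands were called in place of 2 and 2, and 5 genes near Wnt1 in place of 3. The causes were not tested. Depth limits only Wnt1 among the members.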
